A study of Homo sapiens with 10 samples.

Results

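A set of 10 genes is described here: SMARCA2, SMARCA4, ARID1A, ARID1B, ARID2, PBRM1, SMARCB1, SMARCC1, SMARCC2 and SMARCD3, which encode subunits of the SWI/SNF chromatin remodelling complexes. They were taken by gene symbol, and all 10 are among the 23243 genes common to the 4 deposited expression tables. RNA-seq was carried out in cell lines that produced PcTF, a synthetic activator made of the histone-binding chromodomain of CBX8, the red fluorescent protein mCherry and the VP64 activation domain, and the study asked which genes respond to it. The osteosarcoma line U-2 OS and the neuroblastoma line SK-N-SH were transfected with 2 µg of PcTF plasmid and grown for up to 96 h, and the leukaemia line K562 with the same amount for up to 48 h. Each had a mock partner that received the transfection reagents without plasmid. A stable U2OS-PcTF line and a stable U2OS-ΔTF line, in which the truncated protein ΔTF lacks the histone-binding domain, were both given 1 µg/mL doxycycline for 96 h.

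Every transfected or mock group was 1 library, so no value below has a replicate check, and no p-value is given. The treated column of the stable-line table is a deposited mean of 3 PcTF libraries, which by the sample descriptions are the PcTF-transfected U-2 OS library and 2 libraries of the stable U2OS-PcTF line. The study's methods instead give 3 replicates for each stable line, and the descriptions name 1 U2OS-ΔTF library. Each stable line is an engineered derivative of U-2 OS, so line and protein cannot be told apart. Transfected cultures hold cells with and without plasmid, and no sorting before RNA extraction is described. In bulk RNA, fewer cells that express a gene and less RNA per cell cannot be told apart.

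SWI/SNF complexes use ATP to slide or evict nucleosomes, and they oppose Polycomb complexes, which keep genes silent through trimethylation of lysine 27 of histone H3. SMARCA4 (BRG1) and SMARCA2 (BRM) are alternative ATPases. ARID1A and ARID1B are alternative DNA-binding subunits of the BAF form, whereas ARID2 and the bromodomain protein PBRM1 define the PBAF form. SMARCB1, SMARCC1, SMARCC2 and the SMARCD paralogues belong to the core, and SMARCB1 and ARID1A are well known as tumour suppressors.

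RefSeq promoter windows (GRCh38.p14 table, 250 bases before to 50 bases after a start site) were found for 7 members, 15 windows in all, and each matched GRCh37 at 1 place. ARID2, SMARCC1 and SMARCC2 had no entry. In the deposited hg19 coordinates, SMARCB1 lies at chr22:24129150-24181199 on the plus strand, PBRM1 at chr3:52579368-52719866 and SMARCD3 at chr7:150936059-150974231 on the minus strand, and ARID2 at chr12:46123620-46301819 on the plus strand. The windows of SMARCB1, PBRM1 and SMARCD3 are shown because these genes are among those more than 2-fold apart in a comparison, with capitals marking the GC box, spelled GGGCGG and on the other strand CCGCCC, and the CCAAT motif, spelled on the other strand as ATTGG.
SMARCB1, GRCh37 chr22:24128903-24129202, plus strand: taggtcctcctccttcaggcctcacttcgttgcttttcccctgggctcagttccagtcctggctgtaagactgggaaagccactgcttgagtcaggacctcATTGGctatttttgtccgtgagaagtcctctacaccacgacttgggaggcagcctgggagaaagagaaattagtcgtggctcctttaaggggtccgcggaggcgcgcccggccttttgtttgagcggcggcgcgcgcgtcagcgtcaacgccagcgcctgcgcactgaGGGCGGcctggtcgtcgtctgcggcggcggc
PBRM1, GRCh37 chr3:52719880-52720179, minus strand: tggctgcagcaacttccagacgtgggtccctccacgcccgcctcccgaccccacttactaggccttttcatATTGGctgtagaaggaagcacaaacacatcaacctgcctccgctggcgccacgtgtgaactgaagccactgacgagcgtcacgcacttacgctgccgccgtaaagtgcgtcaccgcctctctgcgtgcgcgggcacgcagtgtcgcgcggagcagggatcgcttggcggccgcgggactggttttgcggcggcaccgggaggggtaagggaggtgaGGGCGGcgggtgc
SMARCD3, GRCh37 chr7:150974186-150974485, minus strand: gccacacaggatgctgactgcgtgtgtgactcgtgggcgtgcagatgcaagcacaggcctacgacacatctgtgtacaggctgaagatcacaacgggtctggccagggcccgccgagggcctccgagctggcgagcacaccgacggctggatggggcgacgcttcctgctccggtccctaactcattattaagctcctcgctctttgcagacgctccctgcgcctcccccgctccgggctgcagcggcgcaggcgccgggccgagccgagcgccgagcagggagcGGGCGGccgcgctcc
Both motifs were searched on both strands. Over all 35116 windows of this length in the table, 45.0% held a GC box and 34.6% the CCAAT motif. Of the 15 member windows, 9 held a GC box and 3 the CCAAT motif. In the window nearest to the edge of the deposited locus, all 7 members held a GC box, with 25 CpG in SMARCB1 and 55 in SMARCA4 as the extremes, against a median of 14 CpG over all windows. The windows over all genes were not picked by nearness, so the 2 sets are not like for like. The members' other windows had between 1 CpG in SMARCD3 and 46 in PBRM1. These matches describe the letters of the windows, not factor binding.

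The FPKM values, which are read numbers scaled to gene length and library depth, came from shallow libraries. The step between low values of single-exon genes placed depth at 4280000 to 7400000 reads in the PcTF-transfected libraries, 4670000 to 5190000 in the mock libraries and 5790000 in U2OS-ΔTF. Members had between 3 and 3453 reads per library by this estimate. Intervals given below are exact 95% intervals on these read numbers and cover counting error only. The read numbers rest on coding length, which is shorter than the transcript (3315 against 6354 bases for SMARCC1). They may therefore be too low and the intervals too wide. CBX8, whose chromodomain is part of PcTF, was at 6.43 FPKM with PcTF against 0.610 FPKM in mock U-2 OS cultures, at 8.85 against 0.287 FPKM in those of SK-N-SH, and at 14.3 against 1.59 FPKM in those of K562. All 6 SK-N-SH markers and all 6 K562 markers reached 1 FPKM in their own lines. Of 5 osteoblast-type markers listed for U-2 OS, 3 did so in U-2 OS mock cells and 3 in SK-N-SH mock cells, and COL1A2 was at 0 in U-2 OS, so that list does not set U-2 OS apart.

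SMARCC1, a scaffold subunit, had the highest level of the 10 members in every column. Mock cultures had 173 FPKM for K562, 103 FPKM for U-2 OS and 99.2 FPKM for SK-N-SH, and the U-2 OS and SK-N-SH intervals overlapped. SMARCB1 and SMARCD3 were the lowest members in each mock library. Across mock cells SMARCA4 differed most between lines, with 63.8 FPKM in K562, 34.5 FPKM in SK-N-SH and 14.2 FPKM in U-2 OS, a 4.50-fold span whose neighbours did not overlap. SMARCA2, its alternative, ran the other way, with 6.49 FPKM in K562, 11.3 FPKM in SK-N-SH and 12.5 FPKM in U-2 OS, the last pair with overlapping intervals. PBRM1 had 45.7 FPKM in SK-N-SH, 22.7 FPKM in U-2 OS cells and 11.4 FPKM in K562, a 4.00-fold span, and its PBAF partner ARID2 had 50.4 FPKM for U-2 OS, 32.3 FPKM for SK-N-SH and 22.0 FPKM in K562. Neither pair of neighbours overlapped for PBRM1 or ARID2, and K562 was lowest for both. ARID1B was nearly level, with 11.7 FPKM in U-2 OS, 11.5 FPKM in SK-N-SH and 10.9 FPKM in K562, and all its intervals overlapped. ARID1A was set apart by K562, at 31.1 FPKM, against 15.3 FPKM in SK-N-SH and 12.7 FPKM in U-2 OS. SMARCC2 was lowest in SK-N-SH, at 24.5 FPKM, with 37.0 FPKM in U-2 OS cells and 43.7 FPKM in K562. The least expressed members were less settled: SMARCB1 had 8.03 FPKM in U-2 OS, 4.26 FPKM in SK-N-SH and 2.56 FPKM in K562 with neighbours overlapping, and SMARCD3 had 6.42 FPKM in SK-N-SH above 2.76 FPKM in K562 and 1.81 FPKM in U-2 OS. Over all members, 8 of 20 neighbouring pairs had overlapping intervals. The tables were normalised separately, so these levels were set side by side and not tested.

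**Figure D1:**
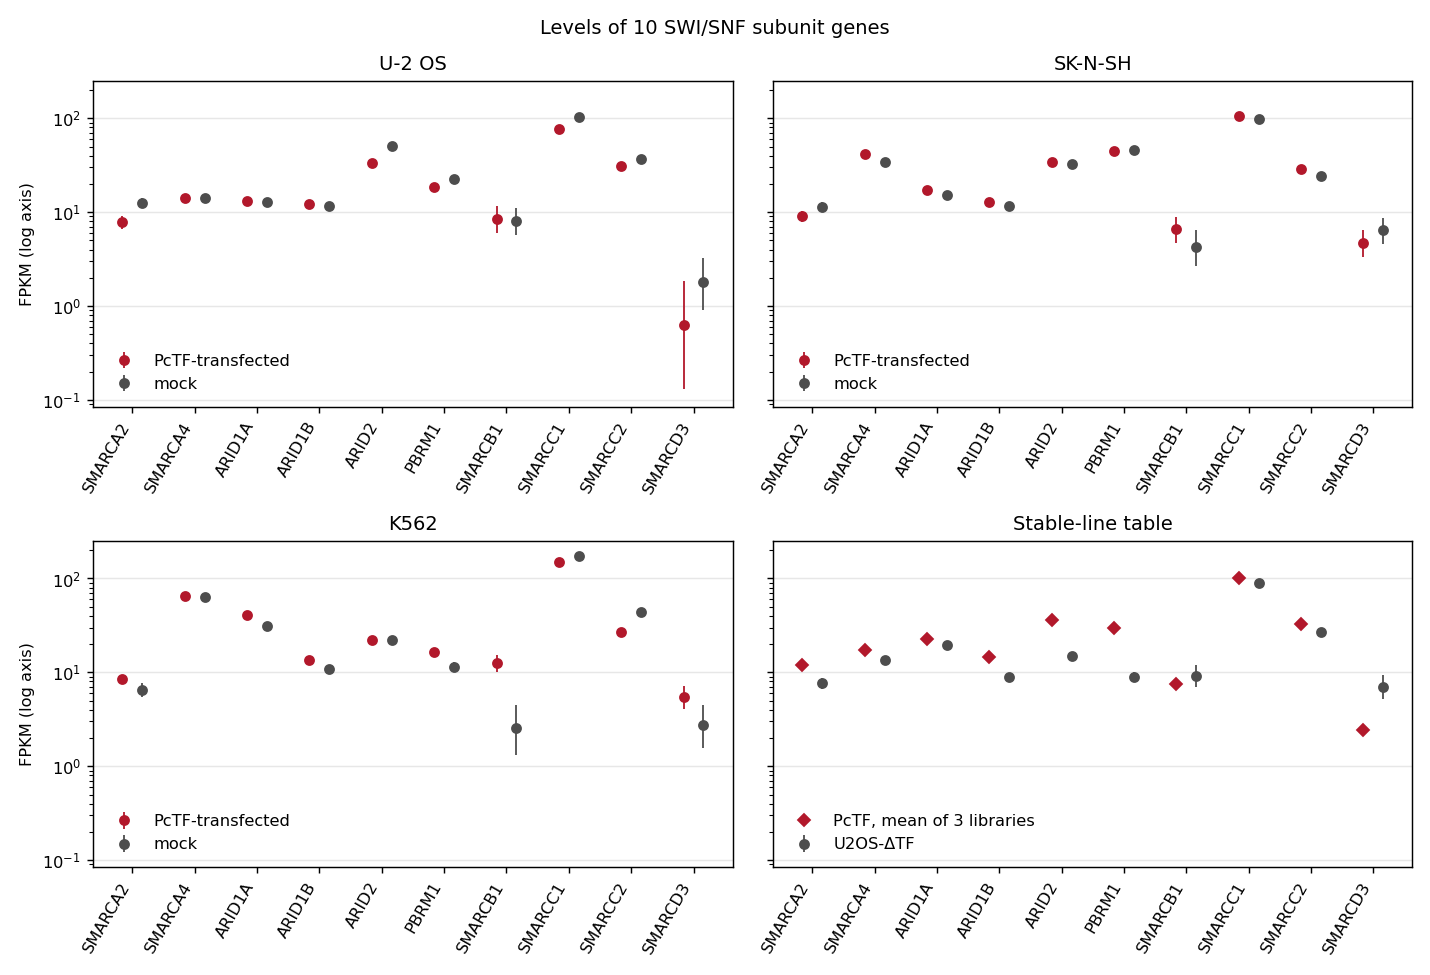
FPKM of the 10 members on a log axis, with PcTF libraries in red and their mock or U2OS-ΔTF partner in grey. Bars are 95% counting intervals of single libraries, and diamonds are the deposited mean of 3 libraries, which has none. SMARCC1 is the highest gene in all panels, and the pairs more than 2-fold apart are SMARCB1 in K562, SMARCD3 in U-2 OS, and ARID2, PBRM1 and SMARCD3 in the stable-line table.

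In U-2 OS cells most members were level or slightly lower with PcTF. The median log2 difference of the 10 members was -0.28 (log2 of FPKM plus 0.1, PcTF over mock), beside 0.08 over all 12411 genes with 1 FPKM or more in either library. By role, the ATPase SMARCA2 was at 7.81 FPKM in PcTF-transfected cells against 12.5 FPKM in mock cells, a log2 difference of -0.67 (interval -0.97 to -0.39), whereas SMARCA4 was at 14.0 against 14.2 FPKM. The BAF subunits were level, with ARID1A at 13.1 FPKM in PcTF-transfected and 12.7 FPKM in mock cells and ARID1B at 12.3 and 11.7 FPKM in the same order. Both PBAF genes were lower: ARID2 had 33.0 FPKM in PcTF-transfected against 50.4 FPKM in mock cells (log2 -0.61, interval -0.74 to -0.48), and PBRM1 had 18.4 against 22.7 FPKM (-0.30). SMARCC1 was at 77.8 FPKM with PcTF against 103 FPKM in mock cells, SMARCC2 at 30.8 against 37.0 FPKM, and SMARCB1 at 8.49 against 8.03 FPKM. SMARCD3, a core subunit known from heart and muscle, was at 0.635 FPKM in PcTF-transfected against 1.81 FPKM in mock cells, from 3 and 11 reads, with an interval on the log2 ratio of -4.17 to 0.23. The intervals of SMARCA2, ARID2, PBRM1, SMARCC1 and SMARCC2 lay below 0 and those of the other 5 members spanned it. No member was 2-fold higher, beside 12.0% of all tested genes, and 1 of 10 was 2-fold lower, SMARCD3, beside 5.59% of all genes. All 10 members passed the 1 FPKM filter in every comparison.

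In SK-N-SH cells no member was 2-fold apart, and the members' median log2 difference was 0.12 beside 0.10 over all genes. SMARCA4 was at 41.3 FPKM in PcTF-transfected against 34.5 FPKM in mock cells (log2 0.26, interval 0.13 to 0.38), and SMARCA2 at 9.01 against 11.3 FPKM (-0.33, interval -0.58 to -0.08), so the ATPases lay on opposite sides of 0. ARID1A had 17.2 FPKM with PcTF and 15.3 FPKM in mock cells, ARID1B 12.7 and 11.5 FPKM, ARID2 34.6 and 32.3 FPKM and PBRM1 44.6 and 45.7 FPKM. SMARCC1 had 104 FPKM with PcTF and 99.2 FPKM in mock cells, and SMARCC2 29.0 and 24.5 FPKM. Of these 6 genes only ARID1A and SMARCC2 had an interval that lay above 0. The widest ratio was that of SMARCB1, 6.58 FPKM with PcTF against 4.26 FPKM in mock cells, and its interval of -0.18 to 1.42 spanned 0. SMARCD3 was at 4.69 against 6.42 FPKM (interval -1.16 to 0.19). The background in SK-N-SH was low, with 5.79% of all tested genes 2-fold higher and 2.69% 2-fold lower, against 0 of 10 members in each direction.

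In K562 cells SMARCB1 was the only member 2-fold apart. SMARCB1 was at 12.5 FPKM in PcTF-transfected against 2.56 FPKM in mock cells, from 91 and 12 reads, a log2 difference of 2.24 (interval 1.38 to 3.26). SMARCD3, also a core subunit, was at 5.51 against 2.76 FPKM (0.97, interval 0.18 to 1.92), just short of 2-fold. The remaining core members lay on the other side: SMARCC2 was at 27.2 FPKM with PcTF against 43.7 FPKM in mock cells (-0.68, interval -0.84 to -0.53) and SMARCC1 at 150 against 173 FPKM (-0.21). The core paralogues SMARCD1 (2.42) and SMARCD2 (2.47), which are not among the members, were higher with PcTF. ATPases and DNA-binding subunits were level or slightly higher. SMARCA4 had 65.1 FPKM with PcTF and 63.8 FPKM in mock cells, SMARCA2 8.40 and 6.49 FPKM, ARID1A 40.8 and 31.1 FPKM, and ARID1B 13.5 and 10.9 FPKM. ARID2 was at 21.9 FPKM with PcTF and 22.0 FPKM in mock cells, and PBRM1 was at 16.4 and 11.4 FPKM. The members' median was 0.34 and that of all 11553 tested genes 0.37. Of all tested genes 28.6% were 2-fold higher and 11.7% 2-fold lower, beside 1 member higher and 0 lower. The set is small, and these counts were not tested against the shares, which also cover genes down to the 1 FPKM filter. After subtraction of the median difference of 0.28 among genes of 1 FPKM or more in both libraries, SMARCB1 was at 1.95, SMARCC2 at -0.97, and SMARCA4 turned to -0.26. The K562 libraries also differed in depth, 7400000 reads with PcTF and 4670000 in mock cells, and in the summed level of the 6 K562 markers, 13015 FPKM with PcTF and 4384 FPKM in mock cells. The part of these in the members' values was not tested.

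Of the members, 3 overlap a gene on the opposite strand, and the sources used here do not state that reads were counted by strand. Overlaps were measured on the exons of all transcripts in a GENCODE annotation, not on the UCSC hg19 gene models behind the FPKM values. SMARCB1 overlaps DERL3 by 2923 bp, and DERL3 in K562 was at 4.83 FPKM with PcTF against 0.986 FPKM in mock cells. SMARCD3 overlaps CHPF2 by 1321 bp, and CHPF2 was at 5.55 against 1.36 FPKM in the same libraries. SMARCC2 overlaps MYL6 by 719 bp, and MYL6 was at 515 against 780 FPKM. In K562 each neighbour thus differed in the same direction as its member. This did not hold in the other transfected lines. With PcTF, MYL6 was at 117 against 89.3 FPKM in U-2 OS, where SMARCC2 was lower. In SK-N-SH MYL6 was at 176 against 186 FPKM, where SMARCC2 was higher. CHPF2 was at 1.11 against 0.707 FPKM in the U-2 OS pair. Its SK-N-SH values were both 5.52 FPKM. SMARCD3 was lower in both lines, with intervals that spanned 0. DERL3 was at 0 with PcTF in both, where mock SK-N-SH had 0.222 and mock U-2 OS 0.237 FPKM. In the stable-line table MYL6 was at 201 FPKM in the PcTF mean against 463 FPKM in U2OS-ΔTF cells, while SMARCC2 was slightly higher before centring. CHPF2 was at 1.03 against 1.10 FPKM there, lower like SMARCD3 but by less. What the overlaps add to the members' values was not tested.

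**Figure D2:**
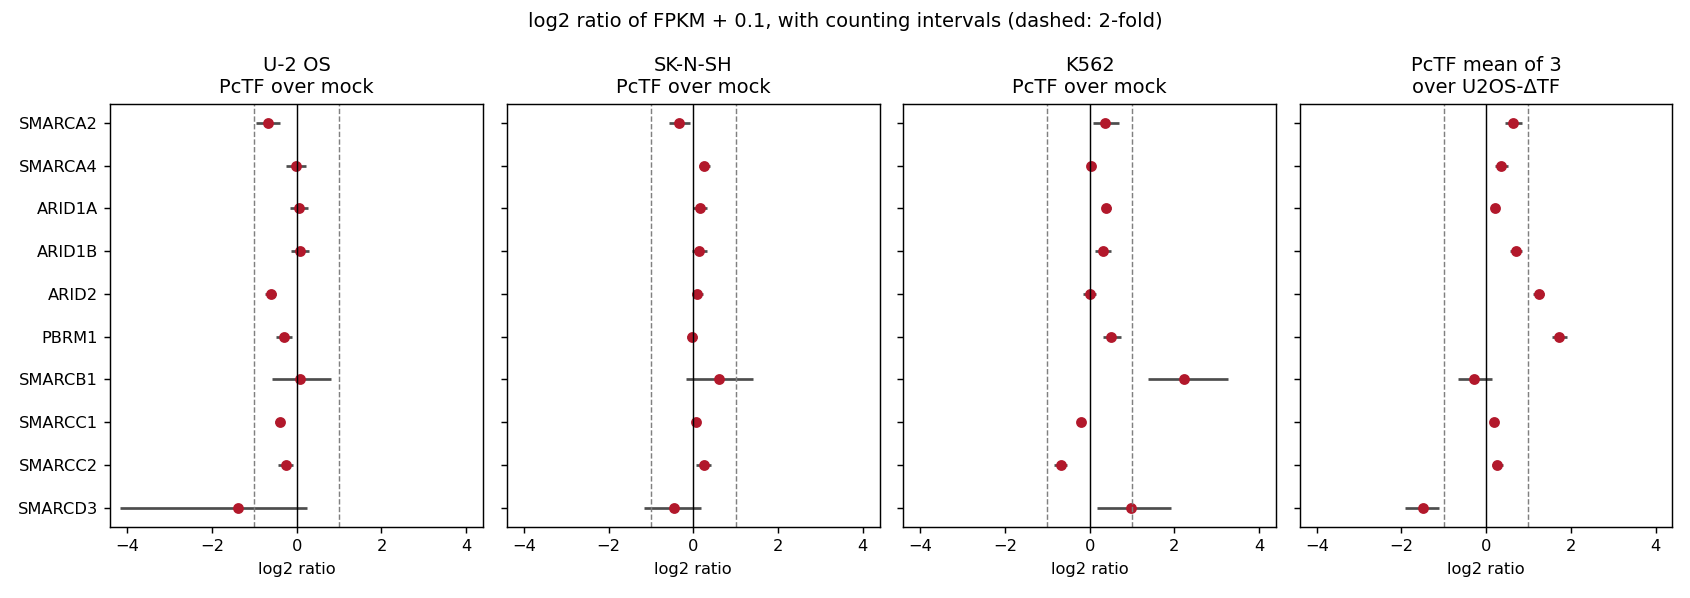
log2 ratio of FPKM plus 0.1 for each member (points) in the 4 deposited comparisons, with 95% counting intervals (lines) and dashed lines at 2-fold. In the right panel the intervals cover the U2OS-ΔTF library only. SMARCB1 in K562 at 2.24, and PBRM1 at 1.71, ARID2 at 1.24 and SMARCD3 at -1.49 in the right panel, lie beyond 2-fold together with SMARCD3 in U-2 OS, whose interval spans 0.

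In the stable-line table the PBAF genes were higher in the deposited PcTF mean than in U2OS-ΔTF cells. PBRM1 was at 29.7 FPKM in the PcTF mean against 8.98 FPKM in U2OS-ΔTF cells (log2 1.71, interval 1.55 to 1.91), and ARID2 at 35.8 against 15.1 FPKM (1.24, interval 1.11 to 1.38). SMARCD3 was lower, at 2.44 against 7.05 FPKM (-1.49, interval -1.92 to -1.10). These intervals cover the reads of the U2OS-ΔTF library only. Smaller differences ran in the direction of the PBAF genes. SMARCA2 was at 11.9 FPKM in the PcTF mean against 7.62 FPKM in U2OS-ΔTF cells, ARID1B at 14.4 against 8.85 FPKM, and SMARCA4 at 17.5 against 13.6 FPKM. ARID1A was at 22.4 against 19.4 FPKM, SMARCC1 at 102 against 89.8 FPKM, SMARCC2 at 32.3 against 27.0 FPKM, and SMARCB1 alone among these at 7.60 against 9.26 FPKM was lower. The members' median was 0.31, beside 0.52 over all 13022 tested genes, of which 36.1% were 2-fold higher and 14.5% 2-fold lower, so 2 members higher and 1 lower of 10 is not above the background. Centred on the median of 0.31 among genes expressed in both columns, ARID2 was at 0.93, short of 2-fold, and ARID1A, SMARCC1 and SMARCC2 turned to values between -0.12 and -0.04.

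The deposited mean includes the transfected library, so the average over both U2OS-PcTF libraries was worked out from it and set against U2OS-ΔTF and mock U-2 OS cells. These comparisons share libraries with each other and are given as values. PBRM1 was at 35.3 FPKM in the stable PcTF mean, against 8.98 FPKM in U2OS-ΔTF and 22.7 FPKM in mock cells. ARID2 was at 37.1 FPKM in the stable PcTF mean, against 15.1 FPKM in U2OS-ΔTF and 50.4 FPKM in mock cells, so its log2 difference was 1.29 over U2OS-ΔTF and -0.44 over mock. SMARCD3 was at 3.34 FPKM in the stable PcTF mean, against 7.05 FPKM in U2OS-ΔTF and 1.81 FPKM in mock cells (-1.05 and 0.85). SMARCC2 was at 33.1 FPKM in the stable PcTF mean, against 27.0 FPKM in U2OS-ΔTF and 37.0 FPKM in mock cells (0.30 and -0.16). The direction for ARID2, SMARCD3 and SMARCC2 thus depended on which U-2 OS library was the comparator. After centring, SMARCC2 was lower over both (-0.09 and -0.48), and SMARCA2 was higher over U2OS-ΔTF and lower over mock (0.47 and -0.17). In U2OS-ΔTF cells set over mock cells, ARID2 was at -1.73 and PBRM1 at -1.33, and SMARCD3 was at 1.90. ARID1A was at 27.1 FPKM in the stable PcTF mean, 19.4 FPKM in U2OS-ΔTF and 12.7 FPKM in mock cells, and it was the only member 2-fold higher in the stable PcTF mean over mock, at 1.09, or 0.76 and short of 2-fold after centring.

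For the stable PcTF mean over U2OS-ΔTF, 2 members were 2-fold higher and 1 lower, beside 37.0% and 13.5% of all tested genes. Over mock, 1 member was higher and 0 lower, beside 27.3% and 7.69%. For U2OS-ΔTF over mock, 1 member was higher and 2 lower, beside 28.1% and 32.0% of all tested genes, which shows how far these libraries lay apart without PcTF.

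**Figure D3:**
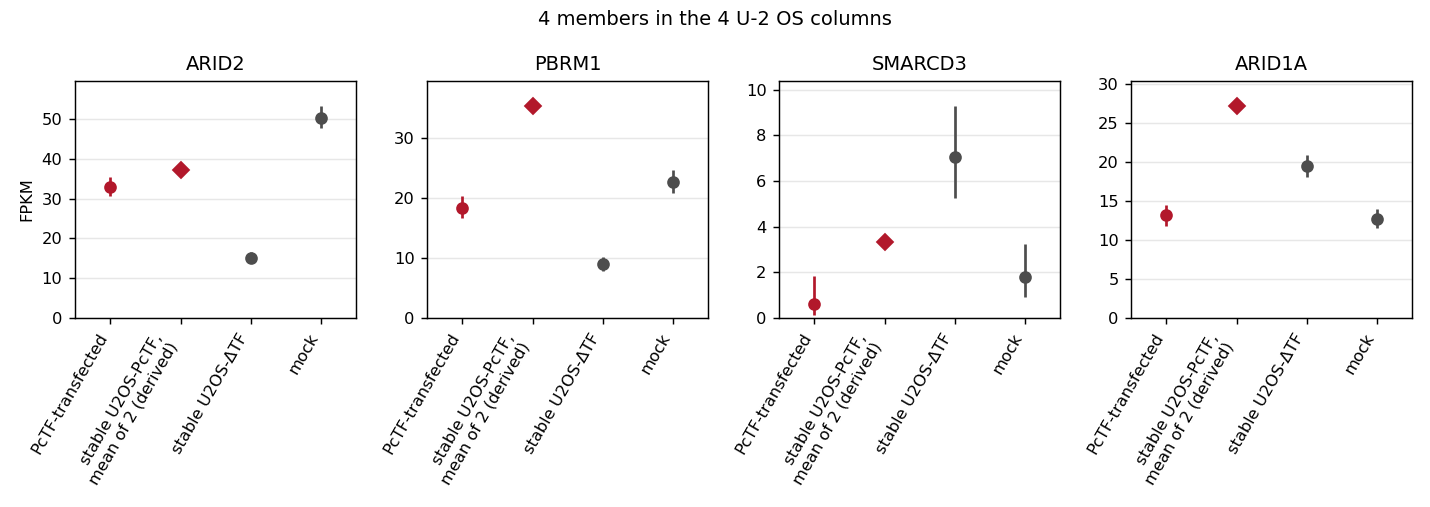
FPKM of ARID2, PBRM1, SMARCD3 and ARID1A in PcTF-transfected U-2 OS cells, the derived mean of 2 stable U2OS-PcTF libraries (diamond, no interval), stable U2OS-ΔTF cells and mock U-2 OS cells, from left to right, with 95% counting intervals. ARID2 and PBRM1 are lowest in U2OS-ΔTF, at 15.1 and 8.98 FPKM, and SMARCD3 is highest there, at 7.05 FPKM.

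Shares among paralogues put these levels in terms of complex make-up at the RNA level. SMARCA2 made up 35.8% of the summed ATPase FPKM in PcTF-transfected and 46.8% in mock U-2 OS cells, 17.9% and 24.7% in SK-N-SH cells, and 11.4% and 9.22% in K562 cells. The PcTF mean of 3 had 40.4%, against 35.9% in U2OS-ΔTF cells. SMARCA4 therefore took the larger share in every library, by a wide margin in K562. ARID1A took 51.6% of ARID1A plus ARID1B in PcTF-transfected and 52.1% in mock U-2 OS cells, 57.4% and 57.0% in SK-N-SH cells, and 75.1% and 74.0% in K562 cells. Within each of these 3 lines the share moved by little, and between lines by more, but it was 60.9% in the PcTF mean of 3 and 68.7% in U2OS-ΔTF cells. ARID2 had 49.2% of the summed ARID1A, ARID1B and ARID2 FPKM in the PcTF mean of 3 and 34.8% in U2OS-ΔTF cells, and in the transfection experiment 56.5% in PcTF-transfected and 67.4% in mock U-2 OS cells. SMARCC1 kept between 71.6% and 84.7% of SMARCC1 plus SMARCC2 in every column. SMARCD3 had 5.27% of the SMARCD total in PcTF-transfected and 16.5% in mock U-2 OS cells, shares that rest on 3 and 11 reads of SMARCD3. It had 25.7% and 32.6% in SK-N-SH cells, and 15.0% in the PcTF mean of 3 against 40.6% in U2OS-ΔTF cells. In K562 cells it had 17.4% and 37.5%, and its paralogues SMARCD1 and SMARCD2 were higher with PcTF there.

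**Figure D4:**
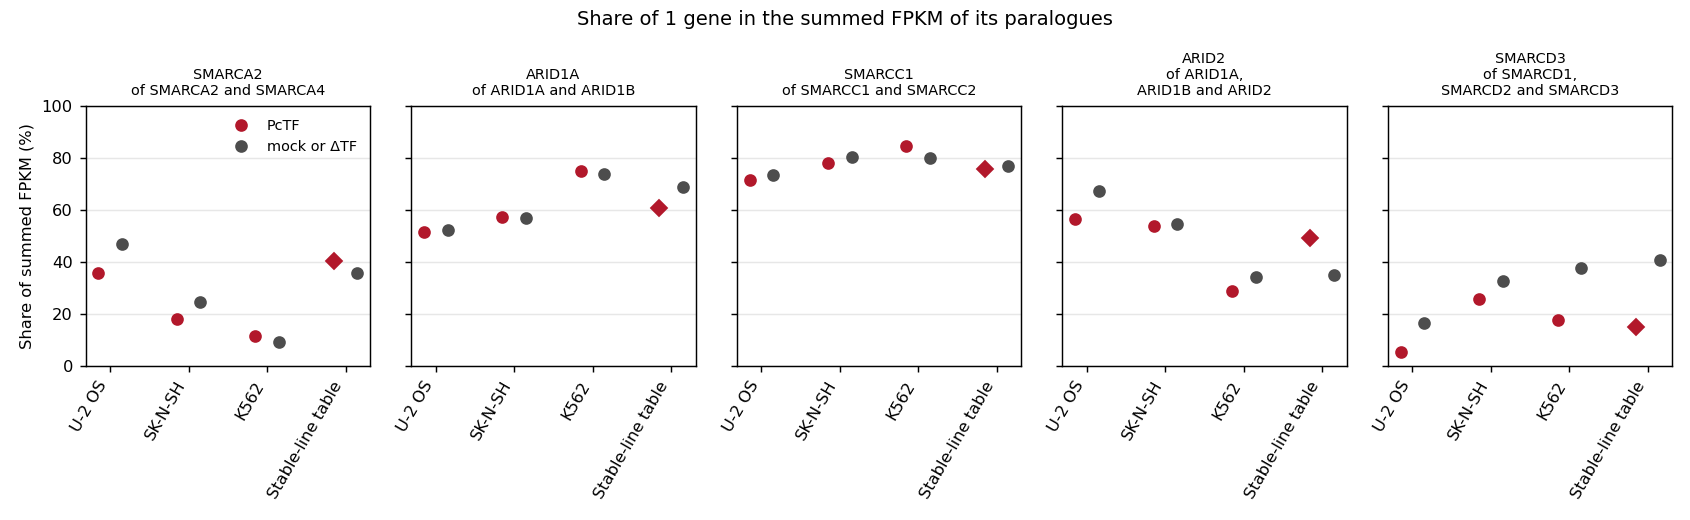
Share of 1 gene in the summed FPKM of its paralogues, in percent, for the PcTF library (red, left) and its mock or U2OS-ΔTF partner (grey, right). Diamonds are the deposited mean of 3 libraries. SMARCA2 has its lowest shares in K562, at 11.4% with PcTF and 9.22% in mock cells, and SMARCC1 stays between 71.6% and 84.7%.

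Among 18 other SWI/SNF subunits in the tables, 1 of 13 tested in U-2 OS was 2-fold higher with PcTF (BCL7A, 6.83 against 3.33 FPKM) and 0 were lower, and in SK-N-SH none of 13 was 2-fold apart. In K562, 5 of 15 were higher and 1 lower, beside 28.6% and 11.7% of all genes, so these counts are near the background. SMARCD1 was at 10.4 FPKM with PcTF against 1.86 FPKM in mock cells, SMARCD2 at 15.7 against 2.75 FPKM, and DPF2 at 31.9 against 11.7 FPKM. BCL7B was at 32.6 against 4.95 FPKM, BCL7C at 5.15 FPKM against a listed 0, and BRD7, a PBAF subunit, at 19.5 against 42.1 FPKM. In the PcTF mean over U2OS-ΔTF, 6 of 16 were higher and 1 lower, beside 36.1% and 14.5% of all genes, again near the background. The PBAF subunit PHF10 was at 20.7 FPKM in the PcTF mean against 7.51 FPKM in U2OS-ΔTF cells. BRD7, also of PBAF, was at 17.5 against 12.4 FPKM, short of 2-fold. The other genes called higher were SMARCE1 at 48.5 against 19.1 FPKM, ACTL6A at 57.1 against 23.1 FPKM, DPF2 at 22.0 against 9.27 FPKM, SMARCD1 at 7.57 against 3.31 FPKM and BRD9 at 3.68 against 1.64 FPKM. ACTB was lower, at 1104 against 2288 FPKM. Of chromatin remodellers of other families and their accessory subunits, 12 of 25 were higher and 0 lower there (median 0.89, beside 0.52 over all genes, and the same 36.1% and 14.5%), among them CHD9 at 21.9 against 5.68 FPKM and SMARCA5 at 55.9 against 14.6 FPKM. Of the Polycomb PRC2 subunits, 3 of 10 were higher and 3 lower in that comparison with the same background. EED, which binds trimethylated lysine 27, was at 11.4 FPKM in the PcTF mean against 75.9 FPKM in U2OS-ΔTF cells. It was also low in mock (6.57 FPKM) and PcTF-transfected U-2 OS cells (8.00 FPKM) and in the stable PcTF mean (13.1 FPKM). For EED the U2OS-ΔTF library was thus the one set apart.

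The differences of all genes followed the GC content and also the length of transcripts in several comparisons. In the PcTF mean over U2OS-ΔTF the median was 0.91 for transcripts above 5000 bases and -0.26 for those of at most 1500 bases. In U-2 OS with PcTF these medians were -0.13 and 0.50. All members but SMARCB1 (1717 bases) and SMARCD3 (1907 bases) have transcripts above 5000 bases. In U-2 OS the median with PcTF was 0.52 above 54% GC and between -0.13 and 0.17 in the lower ranges. The 5 members whose intervals lay below 0 in U-2 OS are the 5 of at most 54% GC. Of these, SMARCA2 (48.8% GC, at -0.67) and SMARCC2 (53.4%, at -0.26) are in the range of 48 to 54% GC, whose median was 0.17. In K562, all genes above 54% GC had a median log2 difference of 0.92 and 47.6% of them were 2-fold higher with PcTF, against medians of 0.17 to 0.23 in the lower ranges. Of the members, 5 are in that range, SMARCB1 (59.1% GC) and SMARCD3 (58.3%) among them, but SMARCA4 (60.7%) was level at 0.03. In the PcTF mean over U2OS-ΔTF, genes of at most 42% GC had a median of 0.93 and 46.9% of them were 2-fold higher, against a median of -0.05 above 54% GC. ARID2 (40.5%) and PBRM1 (41.8%) are the only 2 members of at most 42% GC, and they are the 2 members called higher. For U2OS-ΔTF over mock the same low range had a median of -0.99 and the high range 1.15. ARID1A (57.5% GC), at 1.09 in the stable PcTF mean over mock, was close to the median of 1.13 of genes above 54% GC. The other members in that range lay below it: SMARCD3 at 0.85, SMARCA4 at 0.43, ARID1B at 0.40 and SMARCB1 at -0.16. The part of GC content and of transcript length in the members' differences was not tested.

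**Figure D5:**
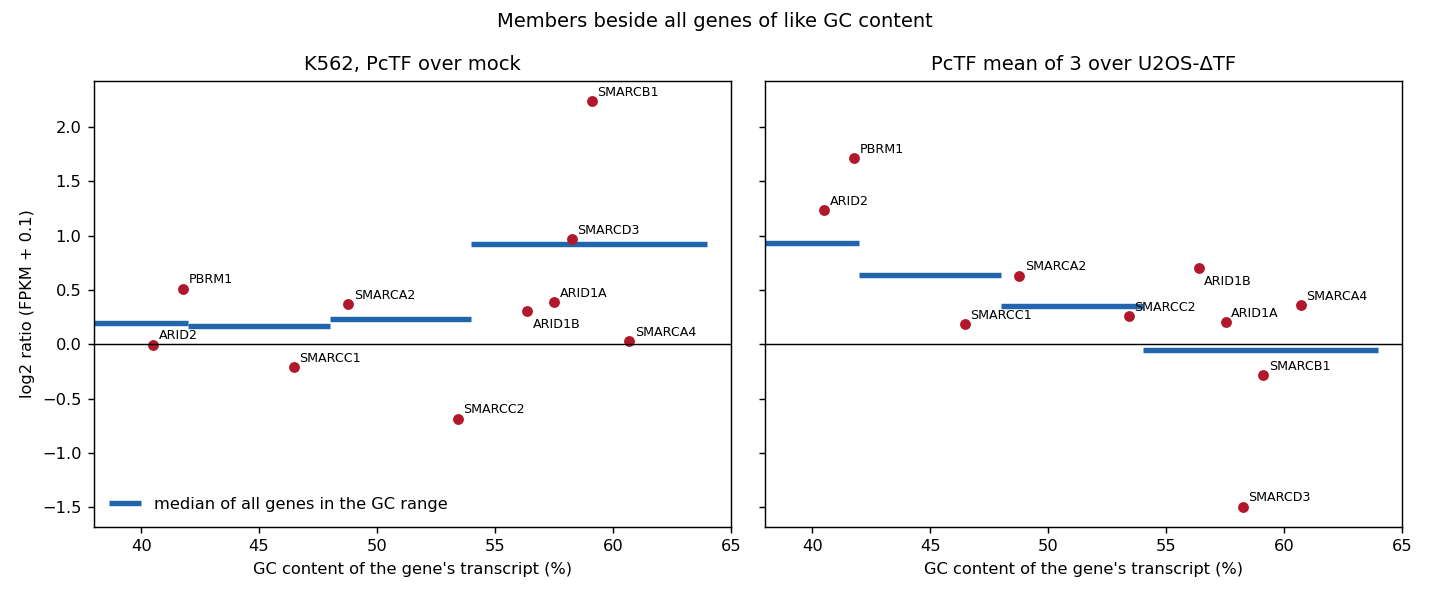
log2 ratio of FPKM plus 0.1 against the GC content of the transcript for the 10 members (points) in K562 and in the PcTF mean of 3 over U2OS-ΔTF. Blue lines are medians of all tested genes in 4 GC ranges, the outer 2 drawn to the panel's range only. In K562 the median is 0.92 above 54% GC, and in the right panel it is 0.93 at or under 42% GC, where ARID2 and PBRM1 lie.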

How the data were processed

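The authors used Cuffdiff to make the deposited FPKM tables, 1 per comparison, from 50-bp single-end reads of amplified cDNA that were trimmed and aligned to hg19 with TopHat2 2.1.0 and Bowtie2 (processing notes and methods), with out-dated symbols removed to 23245 genes. The log2 fold changes, p-values and q-values in the tables are the authors' own comparisons and were not used. Of 10 libraries, 1 is in none of the tables and was not analysed here.

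Differences are log2 of FPKM plus 0.1 over genes of 1 FPKM or more in either column, and a gene was called at 2-fold. Read numbers were estimated from depth (low values whole within 3%, the Cuffdiff default for fragments, 200 bp and an SD of 80 bp) and coding length, and intervals are exact 95% binomial or Poisson intervals (scipy, Python). Depth estimation and calls were checked on simulated data. The stable mean is 3 times the deposited mean minus the transfected library, over 2. Of 16049 genes, 10 were more than 1% below the value this requires. All named genes are members, genes of the other lists at 2-fold, neighbours or paralogues set beside a member, or markers. The members and lists were chosen with earlier results of these data known. Alternatives were other pseudocounts, no filter, a 1.5-fold threshold, centring and other comparators.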

Additional observations from a re-analysis of the deposited data

Results flagged for a closer look

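SMARCA2, PBRM1 and SMARCC2 had counting intervals on opposite sides of 0 in different lines. The log2 difference of SMARCA2 with PcTF was 0.37 for K562, -0.67 for U-2 OS and -0.33 for SK-N-SH. PBRM1 was at 0.51 in K562 and -0.30 in U-2 OS. SMARCC2 was at 0.25 in SK-N-SH, -0.26 in U-2 OS and -0.68 in K562. After centring on all genes the intervals of SMARCA2 in K562 (0.08, -0.21 to 0.40) and of SMARCC2 in SK-N-SH (0.16, -0.02 to 0.33) spanned 0, and that of PBRM1 in K562 was 0.02 to 0.45. With 1 library per group the difference between lines was not tested.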

How the results depend on the processing

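Counts and medians of the members were recomputed with pseudocounts of 0.01 and 1 FPKM, without the filter, with centring and with a 1.5-fold threshold. At 1.5-fold the members past the threshold numbered 3 for U-2 OS (0 higher, 3 lower, beside 23.5% and 11.7% of all genes), 1 for SK-N-SH (1 and 0, beside 13.5% and 5.85%), 3 for K562 (2 and 1, beside 42.1% and 19.3%) and 5 in the PcTF mean over U2OS-ΔTF (4 and 1, beside 48.0% and 21.4%). With a pseudocount of 1 FPKM the count in U-2 OS was 0. Centring brought the members' median to 0.052 in K562 and 0.0037 in the PcTF mean over U2OS-ΔTF. The derived stable mean gave a median of 0.49 over U2OS-ΔTF. With mock cells as comparator, chosen after seeing the data, 1 member was past 2-fold, and ARID2 (-0.44), SMARCD3 (0.85) and SMARCC2 (-0.16) changed direction. The causes were not tested. Leaving out the filter changed no value of a member, since all had passed it. Of 140 values of single members under the other settings, 113 stayed within their counting interval, 25 moved beyond it, and 2, those of ARID2 and SMARCD3, were called values that changed sign. No paired analysis was possible because the tables hold no replicate columns, only single libraries and 1 deposited mean. The sole library that could be left out is the transfected one in that mean, as in the derived stable mean. Depth limits SMARCB1 and SMARCD3 most, with 3 to 91 reads.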
